A study of Mus musculus with 4 samples.

Results

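The genes of oxidative phosphorylation were compared between Brg1-sufficient and Brg1-deficient ILC3s of the mouse small intestine, as 105 protein-coding genes among 53379 genes with values. Members were chosen by symbol alone: genes starting with mt-, Nduf, Uqcr or Atp5, or with Cox followed by 4 to 8, and Sdha, Sdhb, Sdhc and Sdhd. Of these, 13 are encoded by the mitochondrial genome and 92 by the nucleus. ILC3s are group 3 innate lymphoid cells, which make IL-22 and IL-17. Bone marrow cells of Thy1.2 Rag1-/- Smarca4 f/f donors and of Thy1.1 Thy1.2 Rag1-/- Smarca4 f/f donors with a Cre transgene were mixed in equal numbers and given to sub-lethally irradiated Rag2-/- Il2rg-/- mice, and ILC3s were sorted 6 to 7 weeks later as Thy1.2-high, CD45-low cells that were Thy1.1- (Brg1-sufficient) or Thy1.1+ (Brg1-deficient). Both groups thus carried the floxed Smarca4 alleles and lacked Rag1, and the Brg1-deficient donors alone carried Cre, which deletes the floxed part of Smarca4. There were 2 libraries per group. The sources used here give neither the age of the mice nor the number of animals behind a library, so the p-values measure the spread between these libraries.

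Oxidative phosphorylation takes place in the inner membrane of mitochondria, where complexes I to IV pass electrons from NADH and succinate to oxygen. Complexes I, III and IV also pump protons, and complex V uses the proton gradient to make ATP. Complexes I, III, IV and V are built from subunits of both genomes, whereas complex II is encoded by the nucleus alone. The mitochondrial genes are transcribed by their own polymerase as long precursors that are cut into single mRNAs, while each nuclear gene has its own promoter, so the nuclear and mitochondrial members can change apart from each other.

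Expression was given as FPKM, a level scaled to transcript length and library size. No read counts were analysed here, so the sequencing depth is unknown. The sorted values of the 4 libraries formed nearly the same ladder, with 99.3% of 13693 ranks differing by less than 1% across libraries, so a gene's FPKM reflects its rank within the library and total mRNA per cell cannot be read from it. Smarca4, which encodes Brg1, stood at 17.1 and 16.7 against 9.98 and 9.03 FPKM (Brg1-sufficient libraries first), a log2 fold change of -0.77 (adjusted p = 0.153 by limma with Benjamini-Hochberg adjustment). The summed level of 12 ILC3 markers was 10496 to 12820 FPKM in Brg1-sufficient and 12681 to 23428 in Brg1-deficient libraries, the highest of the marker lists summed, and none of the 12 was at 0. This sum rests largely on 1 marker, with a mean of 12576 FPKM against a list median of 192 FPKM. Of the 12, 7 lay above 0 and 5 below. Their groups did not overlap in 4 lower and 2 higher cases, beside 20.2% and 24.4% of all genes tested, and limma called 0 at an adjusted p under 0.05. Markers of other cells were summed in each library. The summed level of 11 ILC2 markers was 828 to 1199 FPKM in Brg1-sufficient and 627 to 839 in Brg1-deficient libraries, and the groups overlapped, as they did for 13 myeloid markers (159 to 345 against 115 to 306) and 10 stromal and muscle markers (72.6 to 101 against 76.7 to 76.9). For the other lists the groups did not overlap: the sum of 10 ILC1 and NK cell markers was 307 to 374 against 261 to 275, that of 8 T cell markers was 59.8 to 135 against 34.9 to 45.4, that of 6 mast cell markers was 9.08 to 11.04 against 6.96 to 7.18, that of 9 B cell and plasma cell markers was 26.1 to 33.2 against 36.1 to 49.7, and that of 12 epithelial markers was 6.46 to 11.98 against 20.9 to 23.7. The highest ILC2 marker had a mean of 652 FPKM against a list median of 14.3 FPKM, so the ILC2 sum rests largely on it. Of the 11 ILC2 markers 10 were tested, and 9 of them lay below 0, with a median log2 fold change of -2.14. The groups did not overlap in 8 lower and 1 higher of these, beside 20.2% and 24.4% of all genes tested. By limma 0 of them were called at an adjusted p under 0.05. Of the 9 ILC1 and NK cell markers tested, 7 lay below 0, and Ncr1, an activating receptor also carried by some ILC3s, fell from 31.3 and 35.5 to 5.37 and 6.02 FPKM (adjusted p = 0.0330 by limma). The cytokine gene Ifng of the same list fell from 22.8 and 37.3 to 3.42 and 3.22 FPKM (adjusted p = 0.0386 by limma). Of the 9 B cell and plasma cell markers 2 were tested, and 1 rose without overlap (log2 fold change 1.06, unadjusted p under 0.05 by limma). The other, Cd79b, fell from 8.68 and 10.02 to 1.03 and 0.99 FPKM (adjusted p = 0.0386 by limma). These 3 calls were lost with no filter on low FPKM (adjusted p = 0.0792 for Ncr1 and 0.0912 for Ifng and Cd79b) and without the variance trend (0.124 for each), and, like every call, with any 1 library left out. In bulk libraries, fewer cells of a type and less RNA per cell cannot be told apart. None of these markers was at 0 in every library, and their part in the results was not tested.

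Of the mitochondrial members, 7 share reads with a near-identical stretch of chromosome 1, so their listed level depends on how such reads were divided. This cluster of unprocessed pseudogenes on the minus strand copies mt-Co2, mt-Atp6, mt-Co3, mt-Nd3 and mt-Nd4l nearly whole, and mt-Co1 and mt-Nd4 in part. The starts of mt-Nd4l (mitochondrial chromosome, 9877 to 9996), mt-Nd3 (9459 to 9578) and mt-Co3 (8607 to 8726) and of their copies Gm10222 (chromosome 1, 24612581 to 24612700), Gm28438 (24613000 to 24613119) and Gm28437 (24613852 to 24613971) are shown 5′ to 3′ on the coding strand (GENCODE M21 transcripts on GRCm38). These genes were chosen because, among the mitochondrial members, their listed level differed by the largest ratio between libraries. Capitals mark a base that differs, and positions are counted from 1 at the first base shown.
mt-Nd4l: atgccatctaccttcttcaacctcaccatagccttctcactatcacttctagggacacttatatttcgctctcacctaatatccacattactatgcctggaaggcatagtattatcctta
Gm10222: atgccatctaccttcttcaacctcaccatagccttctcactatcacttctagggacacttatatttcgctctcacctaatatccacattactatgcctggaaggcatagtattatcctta
mt-Nd3: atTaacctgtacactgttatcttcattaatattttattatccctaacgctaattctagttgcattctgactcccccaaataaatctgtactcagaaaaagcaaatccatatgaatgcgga
Gm28438: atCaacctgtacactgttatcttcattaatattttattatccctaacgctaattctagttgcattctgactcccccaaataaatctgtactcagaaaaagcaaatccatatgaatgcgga
mt-Co3: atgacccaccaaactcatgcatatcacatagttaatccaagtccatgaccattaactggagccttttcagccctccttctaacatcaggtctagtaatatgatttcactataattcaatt
Gm28437: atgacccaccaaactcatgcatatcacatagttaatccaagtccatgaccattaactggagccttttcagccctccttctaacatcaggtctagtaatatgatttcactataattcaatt
Over the whole of the copies, 0 of 294 bases differed between mt-Nd4l and Gm10222, 0 of 783 between mt-Co3 and Gm28437, and 1 of 345 between mt-Nd3 and Gm28438, the substitution T3C in the start codon of mt-Nd3. Of all 90-base windows, the read length the labels give, 98.56% of mt-Nd4l, 97.68% of mt-Nd3, 99.86% of mt-Co3, 99.49% of mt-Atp6, 99.5% of mt-Co2, 61.06% of mt-Nd4 and 26.79% of mt-Co1 were also found in the copy. A read from such a window can be assigned only by the estimate that the quantification makes. The other 6 mitochondrial members, mt-Nd1, mt-Nd2, mt-Nd5, mt-Nd6, mt-Cytb and mt-Atp8, have no copy in this cluster. Of these, mt-Nd2 shares 4.21% of its 90-base windows with Gm13339 on chromosome 2, listed at no more than 1.40 FPKM, and mt-Nd5 shares 0.35% with Gm11407 on chromosome 4, listed at no more than 0.36 FPKM.

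The mitochondrial members spanned a wide range of levels. mt-Atp8, a small subunit of the membrane part of complex V, was highest, at 6828 and 5947 FPKM in Brg1-sufficient and 6192 and 7719 FPKM in Brg1-deficient ILC3s. mt-Atp6, the proton channel subunit of complex V, followed at 3790 FPKM in both Brg1-sufficient libraries against 4652 and 3650 FPKM. The exons of mt-Atp8 and mt-Atp6 overlap on the same strand (7927 to 7969), so reads there belong to both. mt-Co1, the catalytic subunit of complex IV, was at 2606, 3023, 3306 and 2825 FPKM (the Brg1-sufficient libraries first, here and below). mt-Cytb, the cytochrome b of complex III, was at 3306, 2665, 2825 and 2896 FPKM. These 4 genes showed no separation of the groups.

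Among the complex I subunits of the mitochondrial genome, which form its proton-pumping arm, mt-Nd1 was at 2293, 2721, 3131 and 2665 FPKM, and mt-Nd4 at 1100, 1380, 1336 and 1302 FPKM. mt-Nd2 was at 423, 412, 410 and 452 FPKM, mt-Nd5 at 295, 397, 377 and 390 FPKM, and mt-Nd6, the member read from the opposite strand, at 277, 292, 278 and 308 FPKM. In each of these 5 the groups overlapped, and the limma log2 fold changes lay between 0.04 for mt-Nd6 and 0.21 for mt-Nd1. mt-Nd3 was the lowest and most variable of the 13, at 58.1, 218.8, 93.9 and 125.4 FPKM, with both extremes in the Brg1-sufficient group.

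mt-Nd4l was the mitochondrial member with the lowest p. It was listed at 601 and 762 FPKM with Brg1 and at 437 and 396 FPKM without, so the groups did not overlap, and its log2 fold change was -0.70 (standard error 0.168, unadjusted p = 0.00751, adjusted p = 0.188 by limma). Its copy Gm10222 was listed the other way, at 343 and 607 FPKM against 810 and 804 FPKM. When both were combined, weighted by length, mt-Nd4l came to 941 and 1363 FPKM in Brg1-sufficient and 1239 and 1192 FPKM in Brg1-deficient ILC3s. The combined groups overlapped, and limma gave a log2 fold change of 0.10 (SE 0.208, adjusted p = 0.869 by limma). The share listed at the copy was 36.1% and 44.1% in the Brg1-sufficient and 64.8% and 66.8% in the Brg1-deficient libraries.

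The share listed at the copy varied from gene to gene: it was 0 for mt-Nd4, whose copy Gm28439 was listed at 0 in every library, 18.96% to 22.8% for mt-Co1 and 50.8% to 62.8% for mt-Atp6. mt-Co3, a core subunit of complex IV, was listed at 421, 179, 286 and 444 FPKM, while its copy Gm28437 held 3070, 4026, 4026 and 3444 FPKM, and the share listed at the copy ran from 87.9% to 95.7%. Combined, mt-Co3 was at 3487, 4200, 4308 and 3883 FPKM, beside 3376, 3730, 4173 and 3636 FPKM for combined mt-Co1 of the same complex. mt-Co2, which takes electrons from cytochrome c, was listed at 661, 774, 563 and 762 FPKM with 0.054% to 32.3% at its copy Gm28661, and at 661, 853, 831 and 823 FPKM when combined. The lowest of these values were in different groups before and after combining, and the groups overlapped both times. Combined mt-Nd3 was at 265, 434, 315 and 410 FPKM, and combined mt-Atp6 at 8693, 8346, 9462 and 9814 FPKM. For mt-Atp6 the groups overlapped as listed and did not overlap when combined, with a log2 fold change of 0.18 (SE 0.151, adjusted p = 0.657 by limma).

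**Figure D1:**
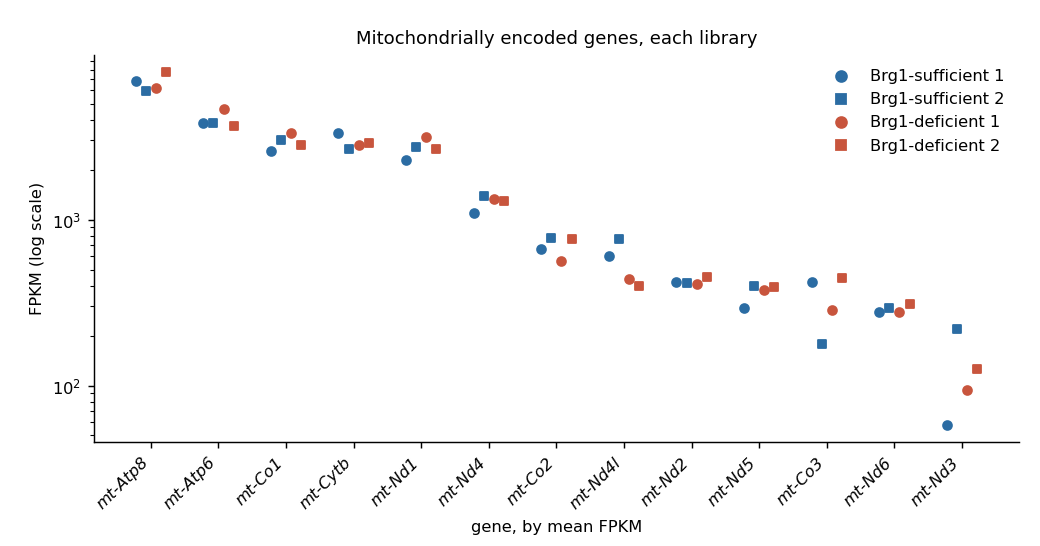
FPKM (log axis) of the 13 mitochondrially encoded genes in each of the 4 libraries, in order of the mean; circles and squares are replicates 1 and 2. mt-Nd4l, with Brg1-deficient values of 437 and 396 FPKM, is the gene whose groups stand apart, and mt-Nd3 spans 58.1 to 218.8 FPKM within the Brg1-sufficient group.

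**Figure D2:**
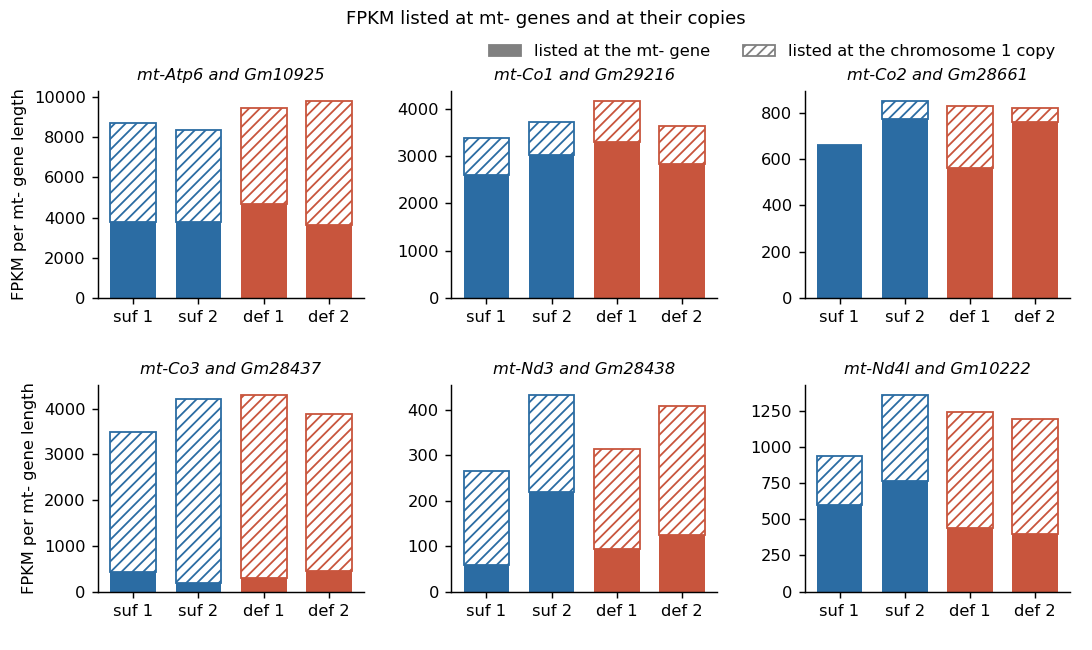
FPKM per length of the mt- gene for 6 mitochondrial genes in each Brg1-sufficient (suf) and Brg1-deficient (def) library: solid bars, listed at the gene; hatched bars, listed at its chromosome 1 copy. For mt-Nd4l the solid bars are lower in the deficient libraries while the full bars, 941, 1363, 1239 and 1192, overlap between the groups.

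Across all members, 99 of 105 passed the filter of a mean above 1 FPKM in either group, all 13 mitochondrial and 86 of 92 nuclear members. The fit by limma on log2(FPKM + 1) over 14739 genes called 0 members lower and 0 higher (adjusted p under 0.05), against 0.224% and 0.0814% of all genes. At an unadjusted p under 0.05, 2 members were lower (mt-Nd4l and Ndufaf8) and 3 were higher (Atp5s, Cox7a1 and Cox6c), where the shares over all genes were 6.47% and 6.12%. With the test limited to protein-coding genes, Atp5s passed, at an adjusted p of 0.038. The groups did not overlap in 27 of 99 members, 19 lower and 8 higher in Brg1-deficient ILC3s, while 20.2% and 24.4% of all genes tested did not overlap in these directions. In 18 of the 19 lower cases and all 8 higher cases the member was nuclear.

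The median log2 fold change was 0.10 for the mitochondrial members, of which 9 of 13 lay above 0, and -0.02 for the nuclear members, of which 35 of 86 lay above 0, beside 0.03 for all genes tested. The difference between the mitochondrial and the nuclear median was 0.12, with a range of 0.04 to 0.14 over the fits that omit a single library. Without the second Brg1-deficient library the mitochondrial median was -0.03, and without the first the nuclear median was 0.01. Summed over its members, the mitochondrial genome held 3.32% and 3.30% of all FPKM in Brg1-sufficient and 3.50% in both Brg1-deficient libraries. The 92 nuclear members held 1.53% and 1.54% against 1.51% and 1.601%. The ratio of the mitochondrial to the nuclear sum was 2.17, 2.14, 2.32 and 2.19, so the groups did not overlap, but the gap between the groups was smaller than the gap between the Brg1-deficient libraries. With the chromosome 1 copies counted in by length, a reading chosen after the values were seen, the ratio was 3.06, 3.11, 3.39 and 3.25. The groups again did not overlap, but the gap between them was no larger than the gap between the Brg1-deficient libraries. An exact permutation test of 2 against 2 libraries cannot give a two-sided p below 0.33.

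The members changed little in size. The absolute log2 fold change was below 0.25 for 87 of 99 members (87.9%), compared with 49.8% of all genes tested, and above 1 for 1 member, Cox7a1. The 95% interval of the log2 fold change lay within -1 to 1 for 91 of 99 members (91.9%), beside 57.2% of all genes tested, and within -0.5 to 0.5 for 52 (52.5%), beside 9.84%. A change of 2-fold in either direction on this scale was therefore outside the interval for most members, whereas for the others it was within it. The members are highly expressed, with a median of 113 FPKM against 7.65 FPKM for all genes tested. Among 1857 protein-coding genes with a mean above 50 FPKM, 68.2% had an absolute log2 fold change below 0.25, 88.3% an interval within -1 to 1 and 34.5% an interval within -0.5 to 0.5. The median standard deviation between replicates was 0.13 on the log2 scale for nuclear members, 0.18 for mitochondrial members 0.14 for those 1857 genes and 0.22 for all genes tested.

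**Figure D3:**
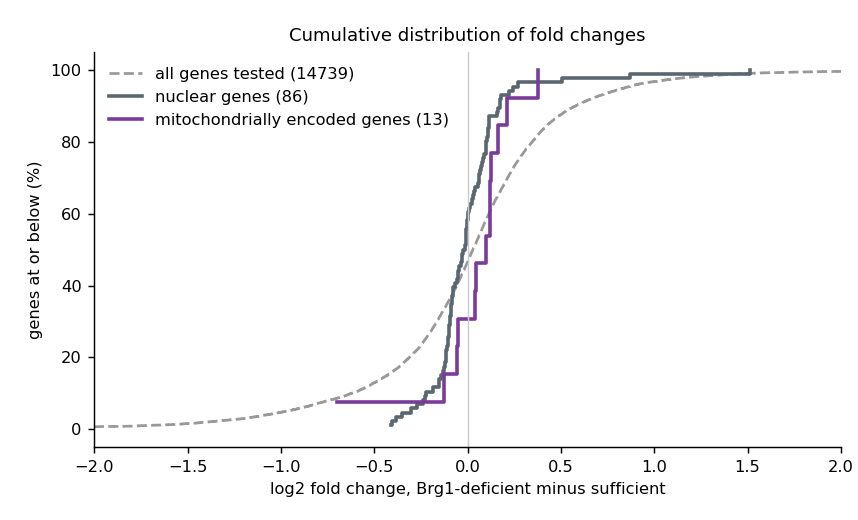
Cumulative share of genes (vertical axis, percent) at or below each log2 fold change (horizontal axis) for the 13 mitochondrial members, the 86 nuclear members tested and all 14739 genes tested; the axis ends at -2 and 2. The 2 member curves rise more steeply around 0 than the curve of all genes, with medians of 0.10, -0.02 and 0.03.

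**Figure D4:**
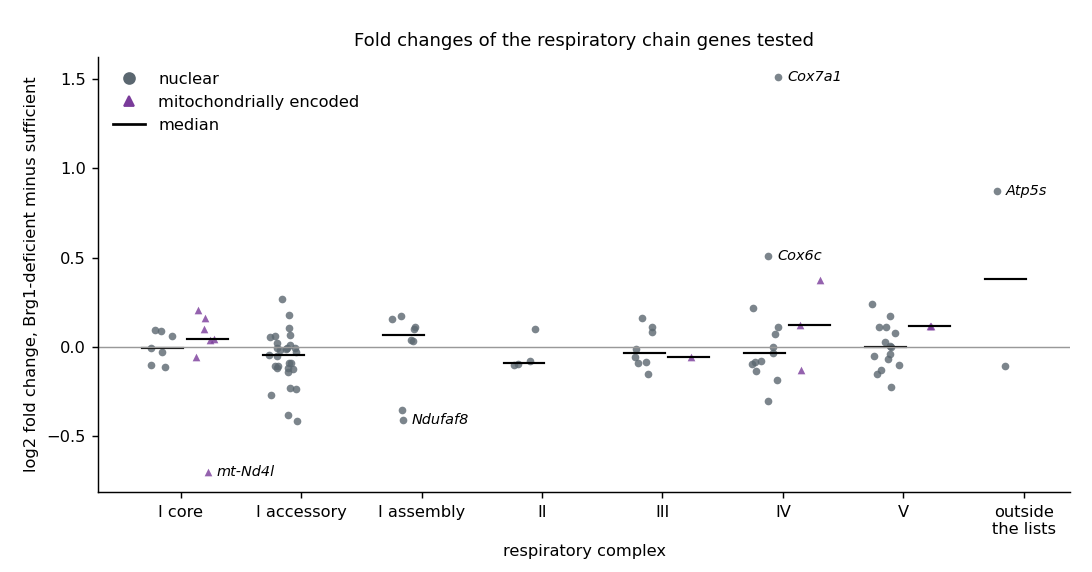
Log2 fold change of each of the 99 members tested (vertical axis), by respiratory complex, with nuclear members as circles, mitochondrial members as triangles and medians as bars. The 5 members named are those at an unadjusted p under 0.05, from -0.70 for mt-Nd4l to 1.51 for Cox7a1.

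Complex I, which oxidises NADH, has the most members. Its 7 nuclear core subunits, which hold the flavin and iron-sulphur clusters, centred on a log2 fold change of 0.00 (the median), and the groups overlapped in all 7. The 29 accessory subunits, which surround the core, had a median of -0.04. Of these, 8 lay above 0 and 21 below, the groups did not overlap in 8 lower and 1 higher case (over all genes tested, 20.2% were lower and 24.4% higher without overlap, a background that holds for the other complexes too), and 0 passed the limma test at an adjusted or an unadjusted p under 0.05. The lowest was Ndufa5, at 56.6 and 51.1 FPKM against 31.8 and 50.6 FPKM (log2 fold change -0.41, 95% interval -1.03 to 0.20), where the first Brg1-deficient library lay well below the other 3. Ndufa12 was at 80.1 and 64.7 against 51.3 and 59.0 FPKM, with a log2 fold change of -0.38.

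Ndufa10, an accessory subunit attached to the membrane arm, was at 143.5 and 140.7 against 129.5 and 111.9 FPKM. Ndufb4 was at 16.6 and 15.3 against 11.9 and 14.3 FPKM, but 34.13% of its 90-base windows are shared with the processed pseudogene Gm3244 on chromosome 15, which was listed at 44.9 to 69.0 FPKM, so its level is uncertain. Ndufab1, the mitochondrial acyl carrier protein, was the accessory subunit with the highest log2 fold change, 0.27, at 69.7 and 68.4 against 69.9 and 99.3 FPKM. Its second Brg1-deficient library alone stood apart, and the lowest Brg1-deficient value was within 1 FPKM of the highest Brg1-sufficient value.

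The 8 assembly factors of complex I, which are not part of the finished complex, were expressed below most subunits, at a median of 12.1 FPKM compared with 76.8 FPKM for the accessory subunits. Their median log2 fold change was 0.07, with 6 above 0. Both below 0 did not overlap between groups. Ndufaf8 was at 27.5 and 28.7 FPKM in Brg1-sufficient and 21.93 and 19.99 FPKM in Brg1-deficient ILC3s, and its log2 fold change was -0.41 (standard error 0.150, unadjusted p = 0.0388, adjusted p = 0.364 by limma). Ndufaf2 was at 16.4 and 15.6 against 11.6 and 13.2 FPKM, with a log2 fold change of -0.35 (unadjusted p = 0.0850, adjusted p = 0.473 by limma).

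Complex II, which oxidises succinate to fumarate and so also belongs to the tricarboxylic acid cycle, had 4 members at similar levels. Sdha, the flavoprotein subunit, was at 143.6 and 147.7 against 138.6 and 132.7 FPKM. Sdhb, the iron-sulphur subunit, was at 97.7 and 84.2 against 87.6 and 84.1 FPKM. The membrane anchors Sdhc and Sdhd were at 102.1, 128.0, 103.7 and 110.1 FPKM and at 95.1, 97.2, 105.6 and 100.6 FPKM. The groups did not overlap for Sdha (lower) and Sdhd (higher), with log2 fold changes of -0.10 (95% interval -0.42 to 0.22) and 0.10 (-0.22 to 0.42), and the median of the complex was -0.09.

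Complex III, which passes electrons from ubiquinol to cytochrome c, had 8 nuclear members with a median log2 fold change of -0.03, 3 of them above 0, in a range from -0.15 for Uqcrc1 to 0.16 for Uqcrb. The groups did not overlap for Uqcrc1 and Uqcr11 (lower) and Uqcrh (higher). Uqcrc1, a core protein of the complex, was at 175 and 177 against 158 and 158 FPKM. Complex V had 15 nuclear members with a median of 0.00, 7 of them above 0, in a range from -0.22 for Atp5g3 to 0.24 for Atp5h. Atp5b, the catalytic beta subunit of complex V, was the nuclear member with the highest mean, at 400 and 486 against 510 and 447 FPKM. The groups did not overlap in 2 lower and 1 higher of the 15. Atp5g3, which encodes the c subunit of the proton-driven ring, was at 97.3 and 111.7 against 88.3 and 90.03 FPKM, and Atp5j2 at 113.1 and 123.3 against 105.8 and 110.3 FPKM. Atp5h, a subunit of its peripheral stalk, was at 330 and 333 against 368 and 418 FPKM, the higher case (adjusted p = 0.538 by limma).

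Complex IV, cytochrome c oxidase, had the widest spread. Of its 18 nuclear members 13 passed the filter, with a median log2 fold change of -0.03 and 6 above 0. Cox6c, a small subunit in the membrane, was at 334 and 366 FPKM in Brg1-sufficient and 446 and 555 FPKM in Brg1-deficient ILC3s, with no overlap and a log2 fold change of 0.51 (SE 0.163, unadjusted p = 0.0237, adjusted p = 0.305 by limma). Cox6b1, another nuclear subunit with a high level, was at 386 and 399 against 424 and 423 FPKM, also without overlap but with a log2 fold change of 0.11 (adjusted p = 0.748 by limma). Cox4i1, the common form of subunit 4, lay the other way, at 362 and 343 against 305 and 314 FPKM (log2 fold change -0.19, adjusted p = 0.608 by limma). Ndufa4, a subunit now counted with complex IV, was at 183 and 169 against 182 and 232 FPKM, and its groups overlapped.

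Several complex IV subunits have a second gene that is restricted to certain tissues. Cox6a2 and Cox8b, the forms of heart and skeletal muscle, were listed at 0 in every library, beside 202 to 254 FPKM for Cox6a1 and 271 to 302 FPKM for Cox8a. Cox8c was listed at 0.08 FPKM in 1 library and at 0 in the other 3. Cox4i2, the form known from lung, was at 0 to 0.86 FPKM, Cox7b2 at 0 to 0.29 FPKM beside 157 to 200 FPKM for Cox7b, and Cox6b2, the form of testis, at 0.60 to 1.21 FPKM. Cox7a1 was the exception. This form of subunit 7a, known from heart and skeletal muscle, was at 0.89 and 2.70 FPKM in Brg1-sufficient but at 6.55 and 6.54 FPKM in their Brg1-deficient counterparts. It had the largest log2 fold change of all members, 1.51 (95% interval 0.59 to 2.44, unadjusted p = 0.00780, adjusted p = 0.192 by limma), and the groups did not overlap. Cox7a2, its widely expressed counterpart, was at 206 and 186 against 180 and 203 FPKM, so Cox7a1 made up 0.430% and 1.43% of the sum of both genes in Brg1-sufficient and 3.51% and 3.12% in Brg1-deficient libraries. The log2 fold change of Cox7a1 was 1.03 without the first and 1.997 without the second Brg1-sufficient library.

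Atp5s had the lowest p of all members. It encodes a factor named for complex V that is not among its subunits here, and RefSeq lists it as Dmac2l. It lies on chromosome 12 of GRCm38 from 69724950 to 69744660 on the plus strand, and no other gene's exon overlaps its own. Atp5s was at 13.8 and 14.5 FPKM in Brg1-sufficient against 28.5 and 25.04 FPKM in Brg1-deficient ILC3s, a 1.89-fold difference of the means. Its log2 fold change was 0.87 (95% interval 0.47 to 1.27, unadjusted p = 0.00217, adjusted p = 0.114 by limma over all genes), and it was between 0.78 and 0.96 with each library left out in turn. Ndufa4l2, also outside the complex lists, was listed at 0 in every library. Cox7a2l, which takes part in joining complexes III and IV, was at 146 and 154 against 143 and 136 FPKM.

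**Figure D5:**
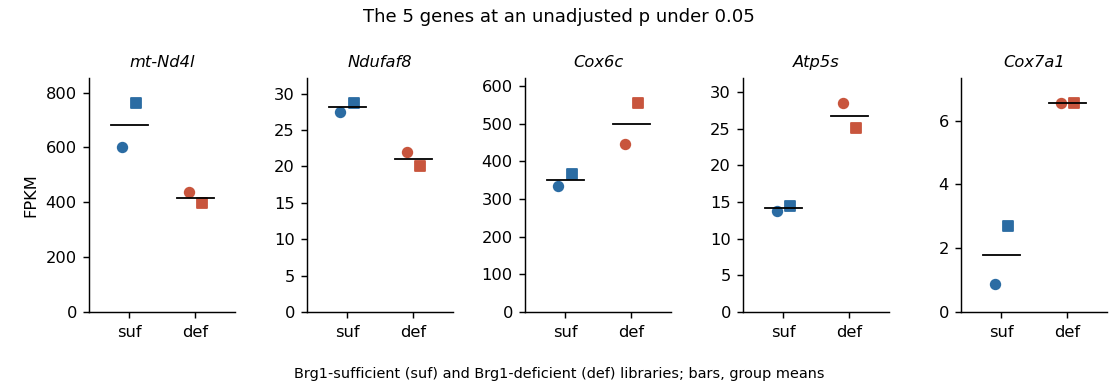
FPKM of the 5 members at an unadjusted p under 0.05 in each Brg1-sufficient (suf) and Brg1-deficient (def) library, each panel on its own axis from 0, with bars at the group means. In all 5 the groups do not overlap; Cox7a1 spans 0.89 to 6.55 FPKM.

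The promoters of the nuclear members, which the choice of members did not use, were searched for motifs. Of 92 nuclear members, 76 have a promoter in the RefSeq table for GRCm38.p6 (250 bases before to 50 after the start). Exact matches on either strand to 4 short cores of factors known to bind such promoters were counted. The NRF1 core CGCATGCG was in the promoters of 11 of 76 members (14.5%) and of 2.07% of 27025 genes, and the YY1 core AAGATGGC in 11 of 76 (14.5%) and 3.19%. The core CCGGAAGT of GABP and other ETS factors was in 5 (6.58%) and 4.31%, and the ERR alpha core CAAGGTCA in 4 (5.26%) and 1.76%. At least 1 of the 4 cores was in 28 of 76 members (36.8%) and in 10.7% of all genes, and no test was made of the difference. A gene with several starts was counted where any of them held a core. The cores do not overlap each other in the stretches shown, and a match says only that these letters occur.

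Atp5l of complex V holds 2 cores before the start, in capitals here, and Uqcr11 of complex III holds the ETS core there. Uqcr11 was also counted for the NRF1 core, which does not lie wholly within the bases shown. Cox7a1, with the largest fold change, holds none of the cores. Shown 5′ to 3′ are the 250 bases before the start at chr9:44920743-44920992 (minus strand), chr10:80406822-80407071 (minus) and chr7:30183921-30184170 (plus), in this order, on GRCm38.p6.
Atp5l: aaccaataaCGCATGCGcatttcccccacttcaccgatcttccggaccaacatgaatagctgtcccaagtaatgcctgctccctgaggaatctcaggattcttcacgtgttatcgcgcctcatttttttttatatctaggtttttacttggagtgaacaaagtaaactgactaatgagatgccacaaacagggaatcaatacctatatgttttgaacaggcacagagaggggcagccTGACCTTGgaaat
Uqcr11: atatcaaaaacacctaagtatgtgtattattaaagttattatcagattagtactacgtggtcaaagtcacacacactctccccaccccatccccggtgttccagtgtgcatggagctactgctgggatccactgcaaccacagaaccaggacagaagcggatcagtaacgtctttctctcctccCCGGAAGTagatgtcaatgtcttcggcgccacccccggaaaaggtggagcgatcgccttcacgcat
Cox7a1: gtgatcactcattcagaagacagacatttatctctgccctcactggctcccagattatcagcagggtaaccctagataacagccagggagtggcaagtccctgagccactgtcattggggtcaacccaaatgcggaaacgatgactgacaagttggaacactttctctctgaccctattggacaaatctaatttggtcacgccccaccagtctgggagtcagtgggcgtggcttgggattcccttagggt
The median log2 fold change was 0.00 for the 11 with the NRF1 core, -0.01 for the 11 with the YY1 core, 0.06 for the 5 with the ETS core and -0.06 for the 4 with the ERR alpha core. Uqcr11 was at 96.4 and 91.3 against 87.2 and 89.7 FPKM. Atp5l was at 151 and 157 against 141 and 170 FPKM, but 48.35% of its 90-base windows occur in the processed pseudogene Gm10221, listed at 204 to 265 FPKM, so its level is uncertain. Of 92 nuclear members, 19 shared at least some 90-base window with a gene outside their locus, and 0 shared 50% or more with a single such gene.

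Genes that serve the same pathway outside the members were tested in the same fit. Over all genes tested, 6.47% were lower and 6.12% higher at an unadjusted p under 0.05 by limma, a background for each of the lists that follow. Among 5 further subunits and cofactors, including Cyc1 (cytochrome c1, 71.3 and 73.6 against 66.3 and 64.2 FPKM) and Usmg5 (678 and 555 against 502 and 536 FPKM), 0 of 5 passed limma at an adjusted or an unadjusted p under 0.05, and all lay below 0. Among 40 assembly factors 0 passed, 1 was lower and 1 higher at an unadjusted p under 0.05, and the median was 0.09. The largest change there was that of Cox10, which makes heme for complex IV, at 33.9 and 32.3 against 21.3 and 16.4 FPKM (log2 fold change -0.79, adjusted p = 0.180 by limma). Among the factors with a mean above 5 FPKM in either group, Bcs1l, an assembly factor of complex III, came next. Bcs1l was at 3.73 and 3.84 against 6.73 and 5.10 FPKM (log2 fold change 0.52), with a mean above 5 FPKM in the Brg1-deficient group alone. The highest log2 fold change of the 40, 0.77, was that of a factor not above 5 FPKM in either group. Of 30 genes for mitochondrial transcription, replication and RNA processing, which serve the 13 mitochondrial members, 20 lay above 0, 0 passed and 3 were higher at an unadjusted p under 0.05. Among those with a mean above 5 FPKM in either group, the largest changes were those of Mterf3 and Rexo2. Mterf3, a repressor of mitochondrial transcription, was at 20.8 and 24.7 against 34.1 and 34.6 FPKM (adjusted p = 0.241 by limma). Rexo2, a nuclease for short RNAs, was at 114 and 118 against 158 and 181 FPKM (adjusted p = 0.219 by limma).

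Of 11 regulators of mitochondrial biogenesis tested, 0 passed and 1 was lower at an unadjusted p under 0.05. Myc was at 10.5 and 8.97 against 5.04 and 4.83 FPKM (log2 fold change -0.85, adjusted p = 0.171 by limma), and Nrf1 at 33.1 and 27.1 FPKM against a Brg1-deficient mean of 24.3 FPKM. In the tricarboxylic acid cycle, which supplies NADH to complex I, 0 of 18 passed, 9 lay above and 9 below 0, and 3 were higher at an unadjusted p under 0.05. These included Idh3a, a subunit of isocitrate dehydrogenase, at 55.9 and 60.4 against 105 and 123 FPKM, and Suclg1, a subunit of succinyl-CoA ligase, at 73.8 and 72.5 against 122 and 135 FPKM (log2 fold changes 0.96 and 0.80, adjusted p = 0.0964 and 0.104 by limma). Both passed when the test was limited to protein-coding genes, at an adjusted p of 0.0178 and 0.0263. The 78 mitochondrial ribosomal protein genes had a median of 0.00 with 39 on either side, 0 called and 4 higher at an unadjusted p under 0.05. Mrps17 was at 20.2 and 24.4 against 35.2 and 36.7 FPKM, and Mrps12 at 32.1 and 44.2 against 18.9 and 30.8 FPKM.

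Among 5 tested carriers and uncoupling proteins of the inner membrane, 1 rose and all lay above 0. Ucp3, an uncoupling protein best known from muscle, was at 2.15 and 3.33 FPKM in Brg1-sufficient and 18.6 and 17.6 FPKM in Brg1-deficient ILC3s, with a log2 fold change of 2.37 (SE 0.226, adjusted p = 0.0386 by limma). The log2 fold change of Ucp3 was 2.14 to 2.60 with each library left out in turn, where 0 of all genes passed, so the call was lost in each (adjusted p = 0.130 to 0.596). Its adjusted p was 0.0912 with no filter on low FPKM and 0.124 without the variance trend. Ucp2, its relative, was at 281 and 598 against 735 and 661 FPKM, so that the first Brg1-sufficient library was far below the other 3 (adjusted p = 0.469 by limma). Ucp3 was the gene called among all the pathway lists outside the members.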

How the data were processed

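RNA-seq was made by the authors from 4 libraries of sorted ILC3s, with mRNA taken by oligo-dT beads and, per the labels, single-end reads of 90 bases. Per the submitters' processing notes and the study's methods, the reads were mapped to GRCm38.p5 with STAR 2.5 and quantified with RSEM 1.2, which shares reads of several origins between genes by estimate, on GENCODE annotation. The deposited values are FPKM per gene and library; their common rank ladder is that of quantile normalization, a step not given in the sources used here.

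The groups came from the sample titles. Genes with a mean above 1 FPKM in either group were tested with limma 3.58.1 under R 4.3.3 (lmFit, then eBayes with its trend option) on log2(FPKM + 1). Genotype was the only term, and p-values were adjusted by Benjamini-Hochberg over all genes tested; this scale understates the change of low genes. Intervals are limma's at 95%. The script was tested on simulated data. The members and gene lists were chosen with earlier results of these data known. Named members are all mt- genes, complex II, the 6 nuclear members with the largest and the 6 with the smallest log2 fold change above 5 FPKM, the 3 highest, and the tissue-restricted complex IV forms with their counterparts; from each pathway list, genes at an adjusted p under 0.05 and the 2 largest changes above 5 FPKM. Others named were chosen after their values were seen. Shared windows were counted between GENCODE M21 transcripts at 50 and 90 bases. All 105 members were found in GENCODE M21, and 42 have exons that overlap another gene's, 12 on the same strand. The alternatives were other pseudocounts, filters, scalings and gene sets, a replicate block, and each library left out. Values are printed for part of the members only, and some results are not reported here.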

Additional observations from a re-analysis of the deposited data

How the results depend on the processing

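Each alternative was fitted in the same way with limma. The counts over all genes, 33 lower and 12 higher, became 248 and 150 with a replicate block, 213 and 138 with protein-coding genes only, 953 and 902 at an unadjusted p under 0.05, and 0 and 0 with no filter on low FPKM or with no trend. Members called stayed at 0 lower and 0 higher in all fits at an adjusted p under 0.05 except with protein-coding genes only, where 1 was higher (Atp5s); at an unadjusted p they were 2 and 3. The genes called in the pathway lists outside the members, 1 in the fit reported, were 3 with the block (Ucp3, Idh3a at an adjusted p of 0.0206 and Suclg1 at 0.0439), 3 with protein-coding genes only, 0 with no filter or no trend, and 14 at an unadjusted p. Leaving out each library in turn gave 0 calls in every list (0 to 0).

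With each library left out in turn, the median log2 fold change ran from -0.025 to 0.0934 for mitochondrial and from -0.0624 to 0.0102 for nuclear members. By complex, the nuclear medians ran from -0.0538 to 0.0717 for core subunits, -0.133 to 0.0316 for accessory subunits and -0.0773 to 0.198 for assembly factors of complex I, -0.0813 to -0.00848 for complex II, -0.0622 to 0.0241 for III, -0.119 to 0.0786 for IV and -0.0436 to 0.0297 for V. The mitochondrial medians ran from -0.0505 to 0.262 for complex I, -0.209 to 0.102 for III, -0.0135 to 0.0905 for IV and 0.0692 to 0.169 for V. With median-ratio scaling over nuclear genes, the median of all genes moved from 0.0283 to -0.00179, that of complex II to -0.122 and that of complex III to -0.0659. Combining mt- genes with their copies, chosen after seeing the data, gave a mitochondrial median of 0.10, with 12 of 13 genes above 0.

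The replicate numbers share no stated animal or batch, and the deviations of same-numbered libraries had a correlation of -0.00 over all genes and 0.15 over members. With the replicate block, the lowest adjusted p among members was 0.0506 (Cox7a1), and that of Atp5s was 0.0527.

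Without read counts the precision of low genes such as Cox7a1 cannot be given, and 2 libraries per group limit every test.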

Other observations

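Among values that belong in no comparison above, Atp5g2, a gene for the ring subunit c of complex V, was at 23.6 and 29.7 FPKM in the libraries numbered 1 and at 10.1 and 9.37 FPKM in those numbered 2 of the Brg1-sufficient and Brg1-deficient groups. The other genes for the same subunit, Atp5g1 and Atp5g3, were at 106, 92.1, 83.8 and 94.6 FPKM and at 97.3, 112, 88.3 and 90.0 FPKM. The mitochondrial ribosomal RNAs mt-Rnr1 and mt-Rnr2 together held 0.601% and 0.806% of all FPKM in Brg1-sufficient and 0.737% and 0.727% in Brg1-deficient libraries, after selection of mRNA by oligo-dT beads. The mitochondrial transfer RNA gene mt-Ts1, whose exon overlaps mt-Co1 on the opposite strand, was listed at 6192 FPKM in both Brg1-sufficient and at 8328 and 6458 FPKM in Brg1-deficient libraries.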
